A study of Mus musculus with 30 samples.

Results

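The genes described here are the potassium channel subunit genes of the mouse dorsal hippocampus transcriptome. They were chosen by symbol alone: 97 rows of the expression table carry a symbol that starts with Kcn, goes on with letters and then has a digit, and 2 of these, Kcnj13 and Kcne2, were left out. The remaining 95 genes are among 24883 rows in all. 91 of them encode channel subunits, and 4 are non-coding transcripts named after a neighbouring channel gene (Kcnd3os, Kcnmb4os1, Kcnmb4os2 and Kcnq1ot1). The study asked how CREST, a nuclear protein encoded by Ss18l1 that works in chromatin remodelling, bears on the genes that change after object location memory (OLM) training. RNA was sequenced from dorsal hippocampus of a single hemisphere, called dorsal CA1 (dCA1) in the study's methods. It came from 30 wild-type C57BL/6J mice, young adult males by the study's methods, 6 per condition and 1 library per mouse. VEH-HC mice stayed in the home cage. VEH-T10 and Y397F-T10 mice were trained for 10 min, the threshold period, and VEH-T3 and Y397D-T3 mice for 3 min, the subthreshold period, with tissue taken 1 h after training. All mice, home cage mice included, had the transfection reagent in vivo-jetPEI infused into the dorsal hippocampus of both hemispheres 3 days before training by the sample labels. The 3 VEH conditions had the reagent without DNA, and the Y397F-T10 and Y397D-T3 mice had a plasmid with HA-tagged mouse CREST in which a tyrosine was replaced by phenylalanine (Y397F) or aspartate (Y397D). The labels call these phospho-null and phospho-mimetic, but phosphorylation of that tyrosine was not detected in the study, so they are named here as point mutants only. A miniCaMK2 promoter drives the plasmid, so it is meant for excitatory neurons, and endogenous CREST remained in every mouse. No condition had unmutated CREST from a plasmid, and no home cage mouse had a plasmid. An effect of a mutant therefore cannot be told apart from that of a plasmid, and every comparison with VEH-HC combines training with whatever else differed from the home cage. By the study's methods the home cage mice, infusion apart, were only handled, while OLM training came after habituation to the chamber. Habituation therefore cannot be told apart from training here.

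Potassium channels let potassium ions leave a neuron and so pull its membrane voltage back toward rest. Voltage-gated Kv channels open on depolarization: the Kv1, Kv2, Kv3 and Kv4 families shape and repeat the action potential, Kv7 (Kcnq) channels carry the slow M-current that limits repetitive firing, and the silent Kv subunits (Kcnf, Kcng, Kcns, Kcnv) make no channel of their own but join Kv2 subunits and alter them. Inward rectifiers (Kcnj), leak channels (Kcnk) and channels opened by calcium or sodium (Kcnma1, Kcnn, Kcnt) set resting voltage and the pauses after spikes, while auxiliary proteins (Kcnab, Kcnip, Kcne) steer pores to the membrane or change how they gate. In CA1 pyramidal cells such currents control dendritic excitability and are known to be adjusted by learning.

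Values are FPKM, fragments scaled for transcript length and for library size, so levels can be set beside each other between genes. Of the 95 genes, 32 averaged at least 10 FPKM over the 30 mice, 36 lay between 1 and 10, and 27 lay below 1, of which 13 were below 0.1. Kcnk16 was listed at 0 in every library. The 68 genes with a mean of at least 1 entered the tests, and the other 27 are given by level only. Kcnh5 at 1.01 and Kcnj14 at 0.894 FPKM lay on either side of that limit. Kcnab2, the Kv beta subunit that binds Kv1 channels in axons, was the most abundant with a mean of 267 FPKM. It was followed by Kcnip2, the KChIP that pairs with Kv4 channels, at 85.0. Other abundant genes were Kcnk1, a weakly conducting leak channel, at 46.0 and Kcnab1, another Kv beta subunit, at 44.7. By family, the 3 Kv beta genes gave 26.0% of the summed mean FPKM of the 95, the 14 inward rectifiers 13.1%, the 4 KChIPs 11.6%, the 4 Kv3 genes 8.86%, the 5 Kv7 genes 7.84% and the 14 leak channel genes 7.18%. Leading members of other families were Kcna1 (23.6 FPKM), Kcnd2 (24.6), Kcng2 (16.3), Kcnh3 (27.1), Kcnj10 (35.9), Kcnmb4 (19.3), Kcnn2 (16.6), Kcnt1 (4.94) and Kcne1l (5.06). At the low end were genes best known outside the brain, such as Kcnj1 of the kidney (0 in 29 of 30 libraries) and Kcne1 of the heart (0 in 24). The 68 tested genes varied more from mouse to mouse than tested genes in general, with a median coefficient of variation of 16.4% against 11.4%, at a similar median level of 8.97 against 9.86 FPKM and with longer transcripts (median 4052.5 against 3437 bases).

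**Figure D1:**
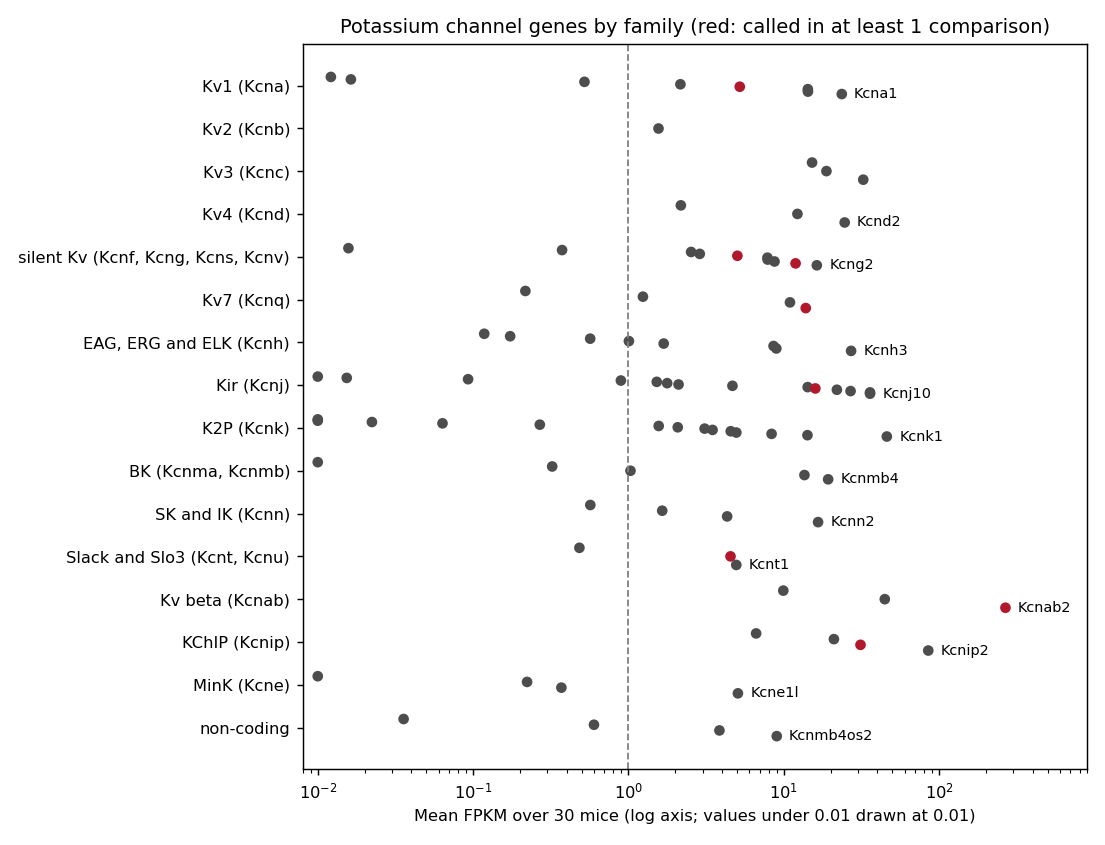
Mean FPKM over the 30 mice (x axis, log scale, values under 0.01 drawn at 0.01) of 92 of the 95 genes, 1 point per gene, in rows by family, with the most abundant gene named in most rows. Points left of the dashed line at 1 FPKM were not tested, and the 8 red points are genes called in at least 1 comparison, which range from Kcnt2 at 4.54 to Kcnab2 at 267 FPKM.

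The condition labels could not be checked with Ss18l1, whose FPKM had medians between 12.4 and 13.7 in the 5 conditions with overlapping mice, and which was not called in any comparison (smallest adjusted p = 0.163). Against vehicle mice of the same training, Ss18l1 differed by 0.06 in Y397F-T10 and by 0.07 in Y397D-T3 on the log2 scale. Expression of the plasmid was thus not seen in the FPKM of this gene. Relative depth, estimated from the smallest steps between values of low genes, ran from 0.811 to 1.24 of the median library. Absolute depth is unknown. The sum over 6 choroid plexus markers varied from 919 to 5597 FPKM among VEH-HC mice and from 11.1 to 12786 among trained mice. Its median was highest in VEH-HC, at 3149 FPKM. After 3 min of training the median was 1957 in VEH-T3 but 126 in Y397D-T3. After 10 min it was 103 in VEH-T10 and 57.4 in Y397F-T10. All 6 markers had estimates below VEH-HC in every trained condition, with 0 called. Markers of regions that border dCA1 were present as well. Slc17a6, listed as a thalamus marker though not confined to the thalamus, had lowest, median and highest values of 3.60, 4.48 and 5.06 FPKM in VEH-HC. After 3 min of training they were 0.825, 1.92 and 6.15 (VEH-T3) and 0.733, 1.79 and 3.52 (Y397D-T3), and after 10 min 0.651, 1.45 and 2.79 (VEH-T10) and 1.00, 1.47 and 1.97 (Y397F-T10). Ctgf, a marker of the deepest cortical layer, had medians of 4.50 FPKM in VEH-HC and of 2.41 (VEH-T3), 2.02 (Y397D-T3), 1.90 (VEH-T10) and 2.52 (Y397F-T10). Of the 8 thalamus markers 7 were tested, and against VEH-HC 0 and 2 of them were called lower in VEH-T3 and Y397D-T3 and 1 in each 10 min condition. Of the 6 deep-layer markers 4 were tested, of which 0 and 1 were called lower in the 3 min conditions and 1 and 0 in VEH-T10 and Y397F-T10. No marker of either list was at 0 in a whole condition, and the sums over each list ran from 14.0 to 69.0 and from 24.3 to 51.3 FPKM over all mice. The summed level of the 4 CA1 pyramidal markers, from 142.9 to 220.3 FPKM, overlapped between conditions, and 1 of the 4 was called higher in Y397D-T3. Sums over 5 dentate granule markers ran from 47.6 to 155.9 FPKM over all mice, and over 5 CA2 and CA3 markers from 70.0 to 117.3. The levels here are therefore those of dorsal hippocampus tissue, not of CA1 alone. Of the 5 pan-neuronal markers 1, Rbfox3, was called higher in Y397D-T3 (0.29 on the log2 scale, adjusted p = 0.00383), at 116.9 to 124.8 FPKM against 91.0 to 107.5 in VEH-HC. The 7 interneuron markers had 6 estimates below VEH-HC in Y397D-T3 and 7 in each other trained condition, with 0 called. The channel genes Kcns1, Kcnf1 and Kcnip3, described next, likewise had their highest medians in VEH-HC, and the part of neighbouring tissue in those results was not tested. In bulk tissue, fewer cells of a type and less RNA per cell cannot be told apart.

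Of the 30 libraries, 3 stood apart from the rest of their condition in 3 or more of these genes. VEH-HC mouse 4 was low in Kcnj6 and Kcnma1 and high in Kcnip2. It also had the lowest Kcnq3, which the outlier check described at the end did not flag. VEH-T3 mouse 1 was high in Kcnf1, Kcns1, Kcnip3 and Kcna2 and had the highest deep-layer marker sum of all mice, 51.3 FPKM against 24.5 to 32.5 in the other VEH-T3 mice. Its thalamus marker sum was the lowest of its condition, 21.8 FPKM against 32.6 to 69.0. Y397F-T10 mouse 1 was high in Kcnd3, Kcnf1, Kcnq5 and Kcnt1, with the highest deep-layer sum of its condition (43.8 FPKM against 26.7 to 34.3) and the lowest thalamus sum (14.0 FPKM against 27.9 to 45.1). VEH-T3 mouse 1 and Y397F-T10 mouse 1 also had the lowest astrocyte, microglia, oligodendrocyte, endothelial and dentate granule marker sums of their conditions. Their neuron sums were the highest, 2202 and 2272 FPKM beside condition medians of 1819 and 1857. For oligodendrocyte markers the sums were 1312 and 1179 FPKM beside medians of 2509 and 2008. The part of these differences in the calls was not tested. Calls that change without any of the 3 libraries are given with and without it.

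**Figure D2:**
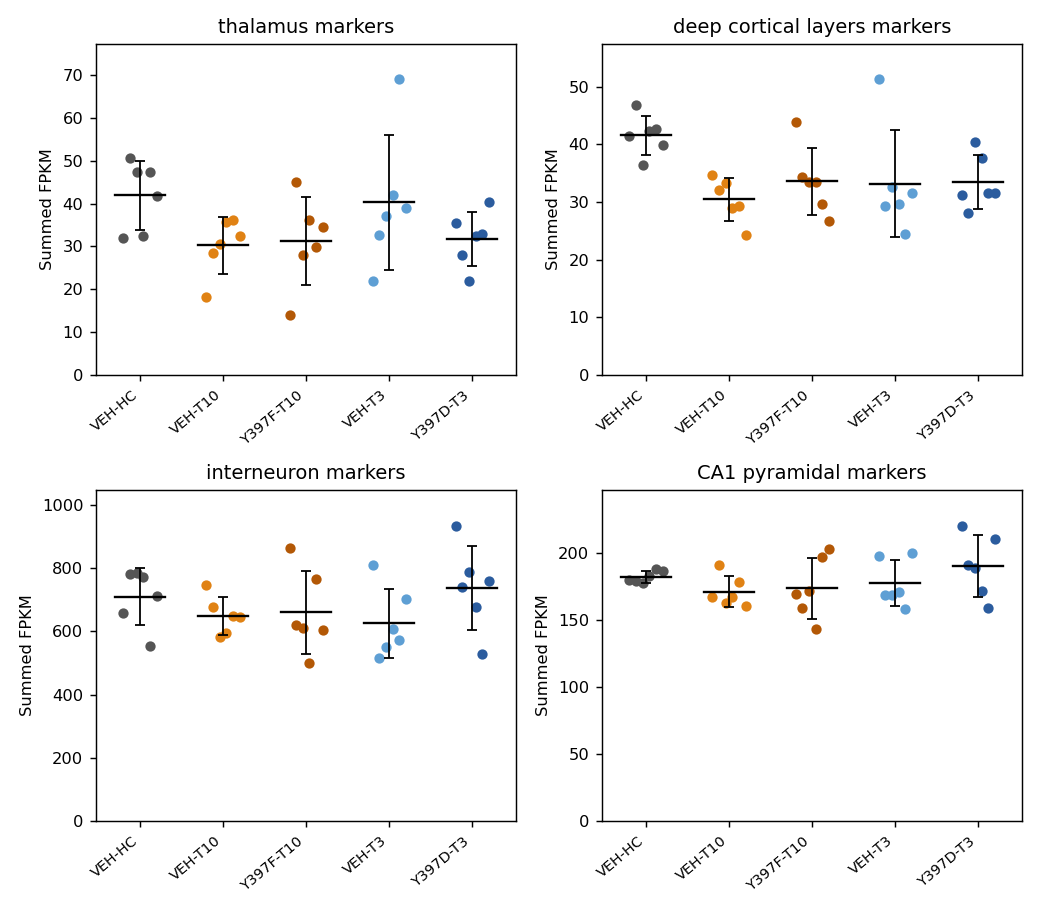
Summed FPKM (y axis) of marker genes of thalamus, deep cortical layers, interneurons and CA1 pyramidal cells in each of the 30 mice, by condition. Points are mice, bars the mean and the SD (n = 6). Thalamus and deep-layer sums had higher medians in VEH-HC (44.5 and 41.9 FPKM) than in any trained condition. The ranges of all 4 sums overlapped with VEH-HC, apart from the deep-layer sum in VEH-T10 (24.3 to 34.6 against 36.4 to 46.8 FPKM).

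Few of the 68 tested channel genes differed from VEH-HC at an adjusted p under 0.05. In VEH-T10, 0 genes were higher and 2 lower, where 0.319% and 0.501% of all 13184 tested genes were called higher and lower. In Y397F-T10, 1 was higher and 1 lower, against 0.470% and 0.660% of all genes. In VEH-T3, 1 was higher and 3 lower, against 2.23% and 2.94%. In Y397D-T3, 5 were higher and 1 lower, against 3.91% and 3.16%. The 14 calls fell on 9 genes. At an unadjusted p under 0.05 there were 18, 17, 20 and 22 of the 68 genes in the same order, where the background was 14.9%, 16.9%, 21.6% and 24.9% of all genes. Most of these leaned lower in the first 3 comparisons (13 of 18, 12 of 17 and 14 of 20) and higher in Y397D-T3 (13 of 22). Among all genes passing the unadjusted threshold 69.3%, 67.5%, 63.9% and 58.7% were lower, so the lower lean in the first 3 comparisons was near the background and in Y397D-T3 the genes at large leaned the other way. The median log2 fold change of the 68 genes was -0.08, -0.07, -0.04 and -0.01, beside -0.03, -0.04, -0.04 and -0.03 over all tested genes. All fold changes are on the log2(FPKM + 1) scale, which understates the change of low genes. The same 6 VEH-HC mice enter all 4 comparisons, so a shift in VEH-HC shows in each of them. When the median of each library was subtracted, the higher and lower calls became 0 and 0, 0 and 0, 1 and 1, and 6 and 0 (0.349%, 0.319%, 2.59% and 7.13% of all genes were called in either direction), with the Y397F-T10 call of the higher gene, Kcnq3, lost along with the lower ones. Counts also moved with single mice. Without VEH-T3 mouse 1, VEH-T3 had 13 calls in place of 4, and the share of all tested genes called rose as well, to 9.78%. Of the 13, 4 were the genes called with it (Kcnf1, Kcnip3, Kcnq3 and Kcns1). Kcnj6, Kcnt2 and Kcnb2 were added as higher and Kcnc4, Kcnip1, Kcnj9, Kcnj12, Kcnk3 and Kcnk12 as lower. Without VEH-HC mouse 4, the counts were 1, 0, 2 and 4, with 0.721%, 0.137%, 1.18% and 5.04% of all genes called. Without Y397F-T10 mouse 1, Y397F-T10 had 3 calls in place of 2, with 3.05% of all genes called. A fit of only the 12 libraries compared, which leaves the differences as they are, also called Kcnf1 in VEH-T10 and Y397D-T3, Kcnj9 in Y397F-T10, and Kcnh2, Kcnk3, Kcnk4 and Kcns2 in Y397D-T3.

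**Figure D3:**
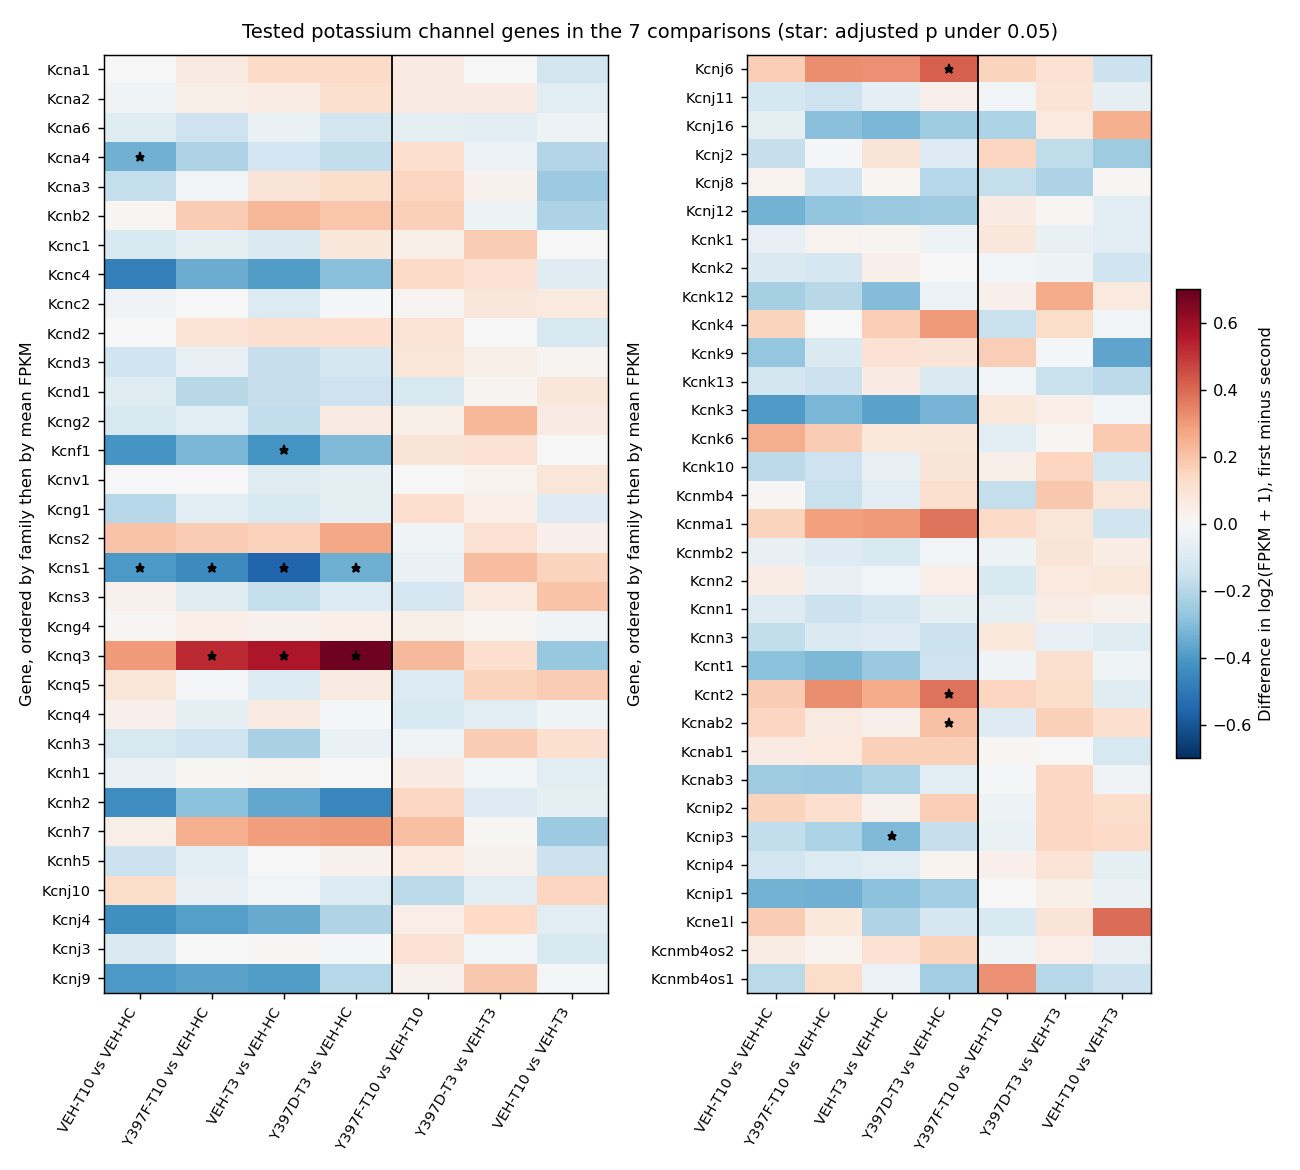
Difference in log2(FPKM + 1) (colour, first condition minus second) for 65 of the 68 tested genes (rows, ordered by family and then by mean FPKM, in 2 panels) in the 7 comparisons (columns), where stars mark an adjusted p under 0.05. The 13 stars all lie left of the vertical line, in the comparisons with VEH-HC, with Kcns1 starred in 4 of them and Kcnq3 in 3.

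Among the silent Kv subunits, Kcns1 (Kv9.1, chromosome 2: 164163619-164171113, GRCm38), a silent subunit that slows Kv2 channels and is known from sensory neurons, was the only one of the 68 genes called in all 4 trained conditions against VEH-HC. Its lowest, median and highest FPKM were 5.63, 6.66 and 7.17 in VEH-HC. They were 3.33, 4.01 and 6.14 for VEH-T3 mice, 4.46, 4.89 and 5.55 for Y397D-T3 mice, 4.05, 4.73 and 5.36 for VEH-T10 mice and 3.45, 4.69 and 5.63 for Y397F-T10 mice. All mice of VEH-T10, Y397F-T10 and Y397D-T3 lay below the lowest VEH-HC mouse, in Y397F-T10 by less than the rounding shows, and in VEH-T3 the single exception was mouse 1. Kcns1 fell by 0.56 on the log2 scale in VEH-T3 (adjusted p = 0.00423), by 0.34 in Y397D-T3 (adjusted p = 0.0289), by 0.40 in VEH-T10 (adjusted p = 0.0406) and by 0.44 in Y397F-T10 (adjusted p = 0.0313), with a standard error of 0.0959 each. The VEH-T3 call kept its side of the threshold whichever mouse was left out, with values from -0.65 to -0.51. The VEH-T10 call was lost without any 1 of VEH-HC mice 1, 2, 3, 4 or 6 or VEH-T10 mice 2 to 6 (-0.42 to -0.36, adjusted p from 0.0599 to 0.105). The Y397F-T10 call was lost without VEH-HC mouse 2 or 4 or Y397F-T10 mouse 3 or 6 (-0.43 to -0.38, adjusted p from 0.0682 to 0.0892), and the Y397D-T3 call without VEH-HC mouse 1, 2 or 4 or Y397D-T3 mouse 2 or 5 (-0.34 to -0.32, adjusted p from 0.0554 to 0.0696). Subtracting library medians, or removing the trend with transcript length and GC content, lost the call in VEH-T10, Y397F-T10 and Y397D-T3 and kept it in VEH-T3. The lost values were -0.37, -0.42 and -0.31 with medians subtracted and -0.33, -0.34 and -0.28 with the trend removed. At unchanged differences, a fit of only the 12 libraries compared lost the call in Y397F-T10 and VEH-T3 (adjusted p = 0.0674 and 0.0817), and dropping the filter on mean FPKM lost it in VEH-T10 (adjusted p = 0.0518).

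The stretch just upstream of the RefSeq start of Kcns1 is shown because this gene fell in every trained condition. It lies at chr2:164171114-164171363 (GRCm38.p6, minus strand) and is printed with those of 2 genes that rose, Kcnt2 at chr1:140245468-140245717 (plus strand) and the most upstream start of Kcnab2 at chr4:152477550-152477799 (minus strand). The RefSeq starts of Kcnt2 and Kcnab2 are not the outermost ends of the GENCODE genes given for them. Capitals mark TGACG or its complement CGTCA, the core of the cAMP response element that CREB binds, CREB being the factor through which the CREST partner CBP is classically recruited.
Kcns1: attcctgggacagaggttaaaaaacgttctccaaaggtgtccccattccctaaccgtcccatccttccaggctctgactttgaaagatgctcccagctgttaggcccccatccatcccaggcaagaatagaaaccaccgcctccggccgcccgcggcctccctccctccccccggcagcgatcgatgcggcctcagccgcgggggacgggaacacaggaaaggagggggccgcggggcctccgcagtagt
Kcnt2: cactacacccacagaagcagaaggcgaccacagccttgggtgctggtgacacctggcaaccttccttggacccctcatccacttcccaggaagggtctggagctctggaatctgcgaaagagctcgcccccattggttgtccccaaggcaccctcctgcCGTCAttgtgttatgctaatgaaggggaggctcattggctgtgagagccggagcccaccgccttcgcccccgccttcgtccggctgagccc
Kcnab2: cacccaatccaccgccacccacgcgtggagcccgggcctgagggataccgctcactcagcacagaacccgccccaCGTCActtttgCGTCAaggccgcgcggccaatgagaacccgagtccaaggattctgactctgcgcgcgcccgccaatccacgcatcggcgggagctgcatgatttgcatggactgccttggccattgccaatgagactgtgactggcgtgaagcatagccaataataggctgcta
Searched on both strands over 250 bases, TGACG was absent from the Kcns1 window, began 91 bases before the Kcnt2 start, and occurred at 175 and 164 bases before the Kcnab2 start. It was also absent from the other Kcnab2 windows and from those of Kcnj6, which rose as well. The windows of Kcna4, Kcnip3 and Kcnf1, which fell, lacked it too, and no window was available for Kcnq3. The genes printed as having risen are therefore not typical of the called genes in this motif. TGACG was held by 17.8% of all 32851 RefSeq windows, and by 14.0% of the 93 windows of 69 potassium channel genes. The full palindrome TGACGTCA, which contains TGACG, was in 1.55% of all windows and in 0 of the 93. These are matches of letters in a window, not measured binding.

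Kcnf1 (Kv5.1, chromosome 12: 17172100-17176888), another silent partner of Kv2, had lowest, median and highest values of 13.0, 14.97 and 16.1 FPKM in VEH-HC and of 9.44, 9.82 and 15.5 in VEH-T3. All VEH-T3 mice but mouse 1 lay below every VEH-HC mouse. Kcnf1 fell by 0.42 in VEH-T3 (standard error 0.125, adjusted p = 0.0483), and by 0.52 without VEH-T3 mouse 1 (adjusted p = 0.00786). Leaving out any 1 of the other 11 mice, all of VEH-HC and VEH-T3 mice 2 to 6, gave an adjusted p from 0.0524 to 0.131. The call was also lost without the filter on mean FPKM and with library medians subtracted. So it was in the fit of only the 12 libraries compared and with the length and GC trend removed. Over these settings the adjusted p ran up to 0.149. Where several differences from VEH-HC are given together, VEH-T10 and Y397F-T10 come before VEH-T3 and Y397D-T3. Those of Kcnf1 in the other 3 trained conditions were -0.41, -0.32 and -0.31 and were not called (adjusted p = 0.1004, 0.186 and 0.121). Mouse 1 of VEH-T10 and of Y397F-T10 had the highest Kcnf1 of its condition, 14.2 and 18.6 FPKM, and without it Kcnf1 was called there (-0.49 and -0.45, adjusted p = 0.0453 and 0.0207). Of the 10 genes of this family 8 were tested, and the 6 others were not called. Kcns2 (Kv9.2) lay at 6.42, 6.86 and 7.25 FPKM (lowest, median and highest) in VEH-HC and at 7.49, 8.51 and 9.24 in Y397D-T3. Those mice did not overlap, yet the difference of 0.27 missed the threshold (adjusted p = 0.0656) and passed it with library medians subtracted (0.31, adjusted p = 0.0304). The ratio of Kcns2 to Kcns1, chosen after the values were seen, had a median of 1.01 in VEH-HC (0.947 to 1.22) and of 1.83, 1.55, 2.04 and 1.72 in the trained conditions, where the lowest mice stood at 1.23, 1.24, 1.08 and 1.47. Kcng2, the leading member, differed from VEH-HC by -0.17 to 0.06 and was not called.

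**Figure D4:**
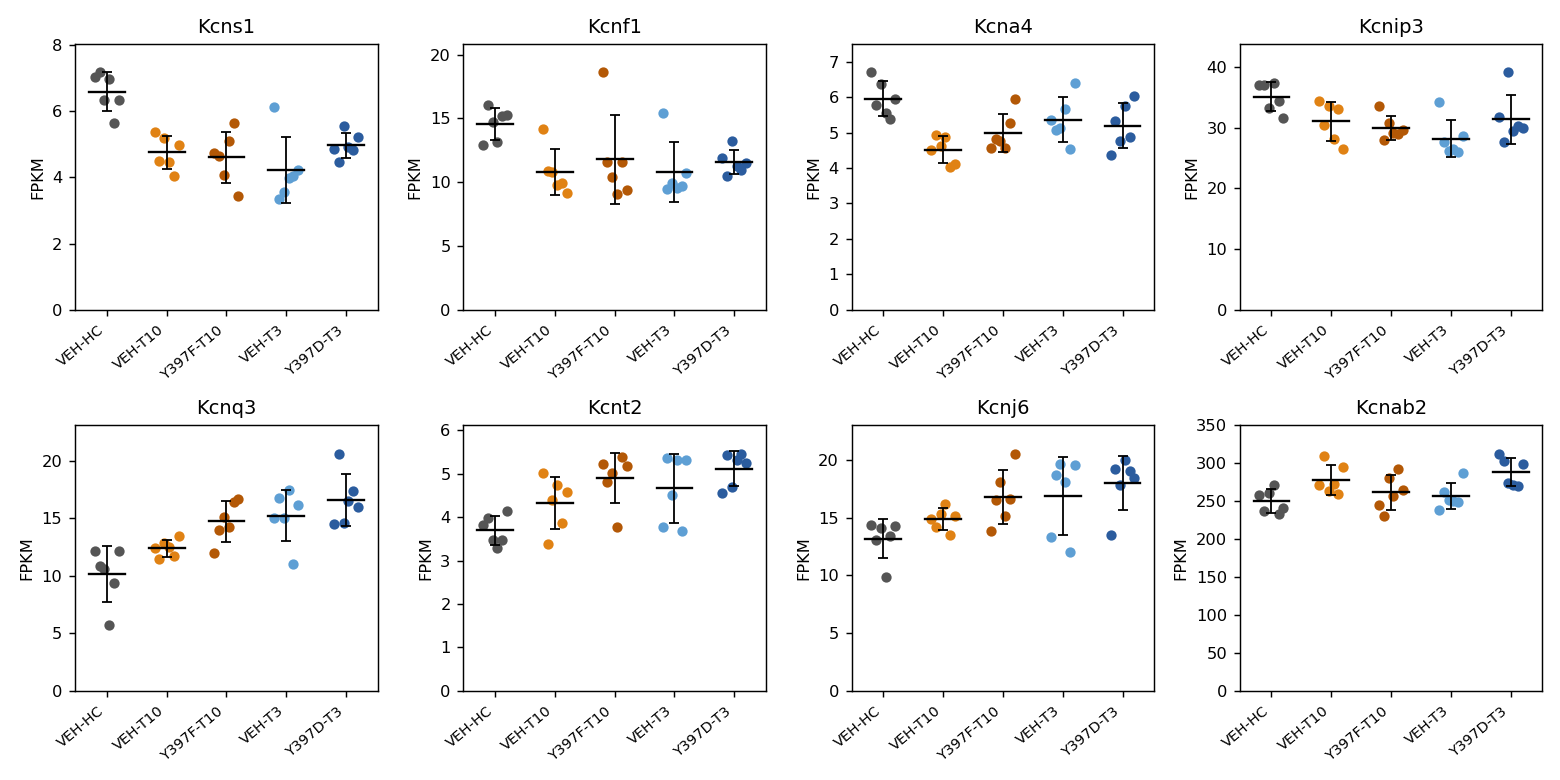
FPKM (y axis, from 0) of 8 called genes in each mouse by condition. Points are mice, the long bar is the mean and the error bar the SD (n = 6). Kcns1 and Kcnf1 stand highest in VEH-HC apart from single trained mice, Kcnq3 and Kcnt2 have their lowest means there, and VEH-HC mouse 4 is the low point of Kcnq3 (5.72) and Kcnj6 (9.91).

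In the Kv1 family, Kcna4 (Kv1.4, chromosome 2: 107290639-107298502), the Kv1 pore that inactivates fast and is found in axons and terminals, had lowest, median and highest values of 5.39, 5.87 and 6.70 FPKM in VEH-HC and of 4.02, 4.57 and 4.94 in VEH-T10, with no overlap. It fell by 0.34 in VEH-T10 (standard error 0.0725, adjusted p = 0.0263). The call was lost without VEH-HC mouse 1, 2 or 3 or VEH-T10 mouse 5 or 6 (-0.34 to -0.31, adjusted p from 0.0561 to 0.0868). With library medians subtracted it was lost as well (adjusted p = 0.0786). In the other trained conditions Kcna4 overlapped with VEH-HC and differed by -0.22, -0.13 and -0.17, none of them called. Kcna1 and Kcna2, the Kv1.1 and Kv1.2 pores of the axon, differed from VEH-HC by 0.00 to 0.13 and by -0.02 to 0.11 and were not called, apart from Kcna1 in Y397D-T3 without Y397D-T3 mouse 1 (0.17, adjusted p = 0.0374). Of the Kv beta subunits, Kcnab2 (chromosome 4: 152390742-152477871) ran from 232.9 to 271.4 FPKM with a median of 249.5 in VEH-HC and from 269.7 to 312.6 with a median of 287.0 in Y397D-T3. All Y397D-T3 mice but mice 4 and 5 were above every VEH-HC mouse, and those lay just under the highest VEH-HC mouse. Kcnab2 rose by 0.20 in Y397D-T3 (standard error 0.0588, adjusted p = 0.0339), and kept the call in all 7 alternative settings. It was lost without VEH-HC mouse 2, 5 or 6 or Y397D-T3 mouse 1, 2 or 6 (0.18 to 0.19, adjusted p from 0.0619 to 0.0833). In VEH-T10 Kcnab2 differed by 0.15, and was not called (adjusted p = 0.200).

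Kcnc4 (Kv3.4), a fast inactivating pore of the Kv3 family, was high, like Kcnf1, in VEH-T3 mouse 1 (29.1 FPKM). It differed by -0.48, -0.34, -0.39 and -0.29 and was not called, except without that mouse (-0.54 in VEH-T3, adjusted p = 0.0486). Among the KChIPs, Kcnip3 (KChIP3, chromosome 2: 127456498-127522094), a calcium sensor of Kv4 channels that is also described as the transcriptional repressor DREAM, had lowest, median and highest values of 31.6, 35.7 and 37.3 FPKM in VEH-HC and of 26.1, 27.1 and 34.2 in VEH-T3. Mouse 1 was again the only VEH-T3 mouse within the VEH-HC range. Kcnip3 fell by 0.31 in VEH-T3 (standard error 0.0751, adjusted p = 0.0206) and by 0.36 without mouse 1 (adjusted p = 0.00391). The call was lost without VEH-HC mouse 4 or VEH-T3 mouse 2 or 3 (-0.30 to -0.29, adjusted p from 0.0539 to 0.0567). It was also lost with library medians subtracted, in the fit of only the 12 libraries compared and with the length and GC trend removed. Over these settings the adjusted p ran up to 0.250. In the other trained conditions Kcnip3 differed by -0.17, -0.22 and -0.16, not called unless Y397D-T3 mouse 3, at 39.1 FPKM, was left out (-0.23 in Y397D-T3). The Kv4 pores that KChIPs serve had no call, and Kcnd2 differed from VEH-HC by 0.00 to 0.11 and Kcnd3 by -0.16 to -0.06. Kcnip2, the most abundant KChIP, differed by 0.03 to 0.17 and was not called, except in Y397D-T3 with the length and GC trend removed (0.25, adjusted p = 0.0409) or without VEH-HC mouse 4 and VEH-T3 mouse 1 together (0.22, adjusted p = 0.0412).

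In the Kv7 family, Kcnq3 (Kv7.3, chromosome 15: 65986387-66286642), a pore of the neuronal M-channel, was called in 3 comparisons. Its lowest, median and highest FPKM were 5.72, 10.7 and 12.2 in VEH-HC. They were 11.1, 15.6 and 17.4 for VEH-T3 mice, 14.5, 16.2 and 20.6 for Y397D-T3 mice, 11.5, 12.4 and 13.5 for VEH-T10 mice and 11.95, 14.7 and 16.7 for Y397F-T10 mice. Only the Y397D-T3 mice lay entirely above VEH-HC, and in the others the lowest mice overlapped with the highest home cage mice. Kcnq3 rose by 0.52 in Y397F-T10 (adjusted p = 0.0360), by 0.56 in VEH-T3 (adjusted p = 0.0133) and by 0.68 in Y397D-T3 (adjusted p = 0.00187), and differed by 0.30 in VEH-T10 (adjusted p = 0.247), with a standard error of 0.123 each. Without VEH-HC mouse 4, at 5.72 FPKM, the values were 0.38, 0.42 and 0.54 in the 3 called comparisons (adjusted p = 0.0806, 0.0325 and 0.00319), so the Y397F-T10 call was lost. That call was also lost without VEH-HC mouse 2 or 5 or Y397F-T10 mouse 3, 4, 5 or 6 (adjusted p up to 0.114), whereas the VEH-T3 and Y397D-T3 calls held in all 12 leave-one-out fits. In the fit of only the 12 libraries compared, the Y397F-T10 and VEH-T3 calls were lost. Kcnq5, another M-channel pore of the hippocampus, differed by -0.09 to 0.08 and was not called. Kcnq3 has a long transcript, and log2 fold changes across all tested genes had a rank correlation with transcript length of 0.326 in VEH-T3, 0.196 in Y397D-T3 and 0.344 in Y397F-T10. With GC content the rank correlations were -0.278, -0.031 and -0.26 in the same order. With the length and GC trend removed Kcnq3 was at 0.45, 0.61 and 0.43, again in that order, and stayed called in all 3. The GC content of Kcnq3 was 44.4%, beside a median of 49.9% over all tested genes. Of the genes that fell, Kcns1, Kcnip3 and Kcnf1 were above that median (60.9%, 54.7% and 54.2%) and Kcna4 was below it (44.9%).

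Among the inward rectifiers, Kcnj6 (GIRK2, chromosome 16: 94748636-94997701), a channel opened by G proteins downstream of GABA-B and other receptors, had lowest, median and highest values of 9.91, 13.7 and 14.4 FPKM in VEH-HC and of 13.5, 18.7 and 20.0 in Y397D-T3. All Y397D-T3 mice but mouse 1 lay above every VEH-HC mouse. Kcnj6 rose by 0.42 in Y397D-T3 (standard error 0.111, adjusted p = 0.0213) and kept the call in all 7 alternative settings. It was lost without VEH-HC mouse 4 (0.35, adjusted p = 0.0597) or Y397D-T3 mouse 2 or 5 (both 0.40, adjusted p = 0.0520 and 0.0523). Kcnj6 differed by 0.17, 0.33 and 0.32 in the other trained conditions, not called unless VEH-T3 mouse 1 or 5 was left out (0.38 and 0.41 in VEH-T3, adjusted p = 0.0313 and 0.0188). Of its GIRK partners, Kcnj3 (GIRK1) differed by -0.10 to 0.01, and Kcnj9 (GIRK3) by -0.40, -0.37, -0.39 and -0.20, none called. Without VEH-T3 mouse 1, at 30.8 FPKM, Kcnj9 was called in VEH-T3 (-0.51, adjusted p = 0.00961). For Kcnj9 the Y397F-T10 mice, at 17.8 to 24.1 FPKM, all lay below the VEH-HC mice, at 25.2 to 28.2 (adjusted p = 0.154). The ratio of Kcnj6 to Kcnj9, also chosen after the values were seen, was 0.393 to 0.571 in VEH-HC with a median of 0.509, and its medians in the trained conditions were 0.726, 0.851, 0.946 and 0.815. The VEH-T10 and Y397F-T10 mice, from 0.591 and 0.574 upward, did not overlap with VEH-HC in this ratio, and VEH-T3 and Y397D-T3 did. Kcnj4 (Kir2.3), a constitutive inward rectifier, lay at 39.0 to 50.2 FPKM in VEH-HC and at 22.9 to 39.7, 28.8 to 36.6, 26.2 to 42.8 and 28.6 to 42.8 in the trained conditions, with no overlap in Y397F-T10. Its differences of -0.43, -0.38, -0.35 and -0.21 were not called (adjusted p = 0.0577, 0.0818, 0.0623 and 0.240), but were called without VEH-T10 mouse 2 (-0.49, adjusted p = 0.0442) or VEH-T3 mouse 6 (-0.42, adjusted p = 0.0374). Kcnj10 (Kir4.1), the astrocyte channel that clears potassium, differed by -0.10 to 0.13 and was not called. Among the 14 genes of this family 10 were tested and Kcnj6 was the 1 called.

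Among the channels opened by sodium or calcium, Kcnt2 (Slick, chromosome 1: 140246158-140612067), a channel opened by internal sodium, had lowest, median and highest values of 3.29, 3.65 and 4.14 FPKM in VEH-HC and of 4.56, 5.28 and 5.46 in Y397D-T3, with no overlap. Kcnt2 rose by 0.38 in Y397D-T3 (standard error 0.0869, adjusted p = 0.00870), and the call held in all 12 leave-one-out fits (0.36 to 0.41, adjusted p up to 0.0249) and all 7 alternative settings. In VEH-T10, Y397F-T10 and VEH-T3 it differed by 0.18, 0.32 and 0.26 and was not called (adjusted p = 0.0589 in Y397F-T10), and it was called in VEH-T3 without VEH-T3 mouse 1 or 5 (both 0.31, adjusted p = 0.0265 and 0.0268) and in Y397F-T10 without Y397F-T10 mouse 4 (0.38, adjusted p = 0.0377). Its relative Kcnt1 (Slack) differed by -0.31 to -0.15 and was not called. Kcnma1, the pore of the large-conductance calcium-activated BK channel, lay at 6.94 to 13.3 FPKM in VEH-HC with mouse 4 lowest and at 13.3 to 17.8 in Y397D-T3, a difference of 0.38 (adjusted p = 0.0685) with ranges that just overlapped. Kcnmb4, its neuronal beta subunit, and Kcnn2, the SK2 channel of the afterhyperpolarization, were within -0.16 to 0.11 and -0.05 to 0.05 of VEH-HC. Kcnmb4os1 and Kcnmb4os2 overlap Kcnmb4 on the opposite strand, and since no source used here says that strand was counted, reads of the 3 cannot be told apart. The 2 tested non-coding transcripts, Kcnmb4os1 and Kcnmb4os2, differed by -0.24 to 0.13 and by 0.03 to 0.15, not called. None of the 9 tested leak channel genes was called, with Kcnk3 (TASK-1), an acid-sensitive leak channel, at -0.40 to -0.32 in the 4 comparisons and called in VEH-T3 only without VEH-T3 mouse 1 (-0.51, adjusted p = 0.00822). Kcnk1, Kcnk2 and Kcnk9 differed from VEH-HC by -0.06 to 0.02, by -0.12 to 0.04 and by -0.27 to 0.10. Nor, with all mice, was any of the 5 tested Kcnh genes, among them Kcnh7 (0.04 to 0.30), Kcnh2 (ERG1, -0.46 to -0.29) and Kcnh3 (-0.23 to -0.05, called in VEH-T3 at -0.27 without VEH-T3 mouse 6), or Kcne1l, the tested MinK relative (-0.21 to 0.18).

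Proteins that anchor or regulate these channels were listed separately, 30 genes of which 28 were tested. Among them 0 were called in VEH-T10, Y397F-T10 and VEH-T3 against VEH-HC (limma, 9, 6 and 7 at an unadjusted p under 0.05, where 14.9%, 16.9% and 21.6% of all genes passed) and 1 in Y397D-T3, higher, where 3.91% of all genes were. There 11 passed unadjusted, against 24.9% of all genes. That gene was Kctd16, an auxiliary subunit of GABA-B receptors, which act through GIRK channels. Its lowest, median and highest values were 2.85, 4.35 and 5.64 FPKM in VEH-HC and 5.85, 6.502 and 7.30 in Y397D-T3, with no overlap. Kctd16 rose by 0.52 (standard error 0.118, adjusted p = 0.00916). Dpp10, an auxiliary subunit of Kv4 channels, stood at -0.67 to -0.61 in all 4 comparisons and was not called (adjusted p = 0.0529 in Y397D-T3).

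Between trained conditions no potassium channel gene was called by limma. In Y397F-T10 against VEH-T10, 1 of the 68 passed an unadjusted p under 0.05, where 3.78% of all genes did and 0% were called after adjustment. In Y397D-T3 against VEH-T3, 7 passed unadjusted (6 higher and 1 lower), against 7.87% of all genes unadjusted and 0.00758% adjusted. In VEH-T10 against VEH-T3, 5 passed unadjusted, all lower, against 8.15% and 0.0455%. The 95% intervals of the differences had a median half-width of 0.21 log2, and 62, 67 and 59 of the 68 genes had intervals within 0.5 log2 of no difference. The intervals of the remainder reached 0.5 or beyond in at least 1 direction. For the genes called most often against VEH-HC, Kcns1 differed by -0.04 between Y397F-T10 and VEH-T10 and by 0.21 between Y397D-T3 and VEH-T3 (adjusted p = 0.611), and Kcnq3 by 0.23 and 0.12. Kcnt2, called against VEH-HC in Y397D-T3 and in no other condition, differed from VEH-T3 by 0.12 (95% interval -0.06 to 0.30), so a difference between Y397D-T3 and VEH-T3 was not shown. In Y397D-T3 against VEH-T3, 51 of the 68 estimates were positive with a median of 0.06, beside 6706 of 13184 and 0.00 over all genes. Log2 fold changes over all tested genes in this comparison had a rank correlation with GC content of 0.311. The tested channel genes had a median GC content of 52.9%, against 49.9% for all tested genes. The part of GC content in this lean was not tested. The summed FPKM of the 95 genes had lowest, median and highest values of 1262.9, 1294.9 and 1327.2 in Y397D-T3. The same values were 1121.8, 1201.5 and 1315.3 for VEH-T3 mice, 1168.2, 1210.4 and 1292.6 for VEH-T10 mice, 1157.7, 1219.6 and 1261.0 for Y397F-T10 mice and 1160.0, 1230.8 and 1266.6 for home cage mice. The Y397D-T3 mice thus stood at the upper end with a narrow range, and overlapped with every other condition but Y397F-T10. The sum is weighted to a few genes. Kcnab2 alone gave on average 20.4% of it in VEH-HC and 22.3% in Y397D-T3, and the 5 most abundant genes gave 41.6% of the summed mean FPKM.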

How the data were processed

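RNA from the dorsal hippocampus of 30 mice was sequenced as paired reads. Per the labels, the authors aligned to mm10 with TopHat2 2.1.1 and computed FPKM with Cufflinks 2.2.1, which divides by transcript length and mapped fragments; the deposited FPKM were used as they are, and 0 columns were left out. FPKM hold no read totals, so precision rests on the 6 mice of a condition. The 13184 rows averaging 1 FPKM or more were tested with limma 3.58.1 (R 4.3.3) on log2(FPKM + 1), all libraries in 1 fit, trended empirical Bayes, 7 comparisons, Benjamini-Hochberg adjustment over all tested rows, threshold 0.05. Intervals are 95%. Figures used Python 3.11.15 and matplotlib 3.10.9. Positions, lengths and GC come from GENCODE for GRCm38 (96.2% of tested rows matched); promoter windows are RefSeq's, GRCm38.p6. Named genes are every called member, the most abundant member of each family, 22 members with known hippocampal roles, and called partner genes; others named were chosen after their values were seen. The genes and lists were chosen with earlier results of these data known. Alternatives were a pseudocount of 0.1, no filter (18287 rows), library medians subtracted, only the 12 libraries compared, a replicate block, rows of a symbol summed, the length and GC trend removed, unadjusted p, and each library left out; leaving out 2 libraries together was added after seeing the data. The paper's sequencing platforms are not assigned to libraries, so platform could not be modelled. Counts cover all members, but some genes are not reported here.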

Additional observations from a re-analysis of the deposited data

Results flagged for a closer look

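In 28 potassium channel genes the highest or lowest mouse of each condition was compared with the others (140 groups of 6 mice), and in 18 groups that mouse stood farther out than Dixon's 95% critical value allows. Chance flags about 1 in 20 groups, but the 28 genes were measured in the same mice, so the flags of 1 mouse are not separate events. Whether 18 exceeds chance was not tested. VEH-HC mouse 4 was behind 3 of these, with Kcnj6 at 9.91 FPKM (next 13.1) and Kcnma1 at 6.94 (next 11.5) lowest and Kcnip2 at 93.7 (next 79.7) highest. VEH-T3 mouse 1 was behind another 4, all high, with Kcna2 at 20.7 FPKM (next 14.3), Kcnf1 at 15.5 (next 10.7), Kcnip3 at 34.2 (next 28.7) and Kcns1 at 6.14 (next 4.23). This mouse also had the highest Slc17a6 (6.15 FPKM) and Ctgf (7.41 FPKM) of its condition, but the lowest sum over the 8 thalamus markers (21.8 FPKM against 32.6 to 69.0).

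In Y397F-T10, mouse 1 was high in Kcnd3 at 18.2 FPKM, Kcnf1 at 18.6, Kcnq5 at 18.5 and Kcnt1 at 7.13, and mouse 4 was low in Kcnt2 at 3.78. In VEH-T10, mouse 1 was high in Kcnd3 at 15.6 FPKM and Kcnf1 at 14.2, and mouse 4 was high in Kcnd2 at 26.5. In Y397D-T3, mouse 1 was low in Kcnj6 at 13.5 FPKM, and mouse 3 was high in Kcnip3 at 39.1. In VEH-T3, mouse 5 was low in Kcnj3 at 23.1 FPKM. The mouse numbers of different conditions belong to different animals.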

How the results depend on the processing

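The numbers of channel genes called against VEH-HC were 2 and 2 after 10 min (VEH-T10, then Y397F-T10) and 4 and 6 after 3 min (VEH-T3, then Y397D-T3), the order of all counts that follow. These counts were equal with a pseudocount of 0.1 and with rows of a symbol summed. They were 1, 2, 3 and 6 without the filter, 0, 0, 2 and 6 with library medians subtracted (all 6 higher), 3, 1, 0 and 13 with only the 12 libraries compared (9 of the 13 higher), 1, 1, 2 and 8 with the length and GC trend removed (all 8 higher), and 18, 17, 20 and 22 at an unadjusted p. Without VEH-HC mouse 4 and VEH-T3 mouse 1 together, a choice made after seeing the data, they were 2, 1, 8 and 7. The cause of these shifts was not tested, apart from the missing adjustment and the fewer samples. Between trained conditions the count was 0 under every setting except the unadjusted p (1, 7 and 5). Leaving out each library in turn gave 0 to 3, 0 to 3, 2 to 13 and 2 to 7 calls against VEH-HC, and 0 between trained conditions. A replicate block gave 2, 2, 4 and 9 calls, but same-numbered mice of different conditions are different animals. Their deviations correlated with a median r of 0.0416 over 60 pairs (-0.496 to 0.84, 24 over 0.1), and 0.00649 for other pairs. Of 30 libraries 8 were closest to their own number, and the numbers were not used to pair the mice. Mouse 1 of VEH-T10, Y397F-T10 and VEH-T3 nonetheless shared traits. Each had the lowest astrocyte, microglia and oligodendrocyte marker sums and the highest neuron sum of its condition, and the highest Kcnf1. Whether same-numbered mice shared any handling was not tested. Over the 14 calls, 280 values under other settings held 196 calls, 84 lost and 0 reversed. Relative depth is known but not read totals, so low genes have no stated counting error.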
